A study of Mus musculus with 16 samples.

Results

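The 9 transcripts described here were picked by gene symbol as complement components and receptors made by macrophages, and all 9 were found among the 46320 genes of the table. They are the 3 chains of C1q (C1qa, C1qb and C1qc), the central component C3, factor B (Cfb), properdin (Cfp), the C3a receptor (C3ar1), the C5a receptor (C5ar1) and Itgam, the alpha chain of complement receptor type 3.

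Complement is a set of plasma and cell-surface proteins that tags particles and dying cells for uptake and calls in immune cells. It is started by the recognition molecule C1q in the classical pathway, passes through the central component C3, and is amplified by factor B and properdin in the alternative pathway. The fragments released on the way act through receptors on phagocytes, and macrophages are a main source of C1q as well as a carrier of those receptors.

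The cells were macrophages grown from the bone marrow of C57BL6/J mice over 7 days with L929-conditioned medium, and they were starved in 0.5% serum for 4 hours before treatment. Each of the 4 groups held 4 bulk RNA-seq libraries made with a stranded mRNA kit. Macrophages received platelets activated with thrombin, platelets at rest, thrombin alone, or PBS as the vehicle, each for 4 hours, and the platelets came from the blood of C57BL6/J mice. The protocol gives 0.01 U/mL thrombin, alone or on platelets, while the labels of the thrombin group give 0.1 U/mL.

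The libraries held 28034747 to 30602414 counts with activated platelets, 24857304 to 26355549 with resting platelets, 23148856 to 26716684 with thrombin and 22554915 to 27691521 counts in vehicle. All 8 macrophage markers had counts in every group, with summed levels of 16364 to 21220 CPM (counts scaled per 1e6 by TMM) with activated platelets, 16413 to 21086 with resting platelets, 16139 to 20937 with thrombin and 16406 to 20681 CPM in vehicle. Replicate 1 of each group carried the Y-linked transcript Ddx3y at 85.1 to 93.2 CPM, against 0 to 0.27 CPM in replicates 2 to 4, which carried Xist at 1055 to 1292 CPM. Libraries of the same replicate number deviated from their group means together, so values are also compared within numbers. In bulk libraries, fewer cells of a type and less RNA per cell cannot be told apart.

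Without a block for replicate number, C5ar1 was the 1 of the 9 transcripts called with thrombin-activated platelets against vehicle. It was higher, as were 12.2% of all genes, while 13.6% were lower. With the block 4 members were higher and 1 lower, against 20% and 22.5% of all genes. C5ar1 rose 1.55-fold against vehicle and 1.28-fold against resting platelets, where C3ar1 fell 1.33-fold. In that comparison 7.34% of all genes were called higher and 8.49% lower without the block. Both of these calls against resting platelets ended without the block when some libraries were left out. In the fit without the block, no member passed with thrombin alone or with resting platelets against vehicle, where 0.288% and 3.39% of all genes did. With the block 5 and 4 of the 9 passed, against 8.23% and 21.5% of all genes. With correction for transcript GC content as well, 0 and 5 of the 9 passed, and 426 and 2742 of all genes. The C1q chains were the most abundant members per kb of exon in all 4 groups.

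C5ar1 encodes the receptor for C5a, the fragment of C5 that draws phagocytes and primes them. The gene lies on chromosome 7, 15980668 to 15993465, minus strand (GRCm39). C3ar1, on chromosome 6, 122824099 to 122833116, minus strand, encodes the receptor for C3a. The sequences before the starts of both genes are shown because these receptors moved in opposite directions with activated platelets. With resting platelets both were higher than in vehicle in 4 of 4 replicate numbers. RefSeq promoter windows on build GRCm38.p6 were matched for 7 of the 9 members, with C1qa and Cfb unmatched. Bases that GENCODE M21 places in an exon were left off each end. The stretch of C5ar1 lies at chr7:16259339-16259512, in an intron of a longer GENCODE transcript, and that of C3ar1 at chr6:122856162-122856407, both on the minus strand and written 5′ to 3′. Capitals mark matches to any of 5 short motifs searched on both strands.
C5ar1: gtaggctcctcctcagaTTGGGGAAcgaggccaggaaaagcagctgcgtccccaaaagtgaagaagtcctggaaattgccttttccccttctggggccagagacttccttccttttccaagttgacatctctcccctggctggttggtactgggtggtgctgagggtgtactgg
C3ar1: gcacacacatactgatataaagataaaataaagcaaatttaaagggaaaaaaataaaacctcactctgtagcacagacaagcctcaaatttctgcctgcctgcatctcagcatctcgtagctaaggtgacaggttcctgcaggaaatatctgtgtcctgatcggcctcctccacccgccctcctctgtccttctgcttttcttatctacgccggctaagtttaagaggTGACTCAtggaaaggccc

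The 5 motifs were TGCTGAC (from the Maf recognition element), GAGGAA (the core bound by PU.1), TGANTCA (AP-1), TTNNGNAA (C/EBP-like) and TGACGTCA (the cAMP response element). In the 250 bases before its start, C5ar1 held 1 C/EBP-like match, 157 bases upstream, and C3ar1 held 1 AP-1 match, 22 bases upstream. Of 32851 promoter windows of that length, 36.8% held a C/EBP-like match and 6.75% an AP-1 match. These are matches of letters, not sites shown to be bound.

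C5ar1 stood at 325, 304, 348 and 342 CPM in replicates 1 to 4 with activated platelets, at 227, 269, 277 and 257 CPM with resting platelets, at 175, 195, 213 and 190.5 CPM with thrombin, and at 191, 189, 258 and 213 CPM in vehicle. Every activated platelet library was above every library of the other groups, while the thrombin and vehicle libraries overlapped. Against vehicle its log2 fold change was 0.63 ± 0.09 (SE; edgeR quasi-likelihood test, adjusted p = 9.26e-05), higher in 4 of 4 replicate numbers. Without the replicate block it was the 1 member called in this comparison, where 12.2% of the 15610 genes tested rose and 13.6% fell. That call held with each library left out, at an adjusted p of up to 0.00437. With the block C1qa, C1qb and Itgam were called higher too, and C3ar1 lower.

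Against resting platelets, C5ar1 was higher with activated platelets by 0.36 ± 0.09 in log2 (edgeR, adjusted p = 0.0145). The call ended without resting platelet replicate 1 (adjusted p = 0.053) and without replicate number 1 (0.0787) or 4 (0.0933). Resting platelets against vehicle gave 0.28 ± 0.09 (adjusted p = 0.106), which passed with replicate number as a block (0.00133), without vehicle replicate 3 (0.0185) and without replicate number 3 (0.0388). The thrombin libraries differed from vehicle by -0.14 ± 0.09 (adjusted p = 0.628). The platelet by thrombin interaction, which is the difference of activated minus resting platelets less that of thrombin minus vehicle, was 0.49 ± 0.13 for C5ar1 (adjusted p = 0.0241). Without the block it was the 1 member called there, on the higher side, where 4.56% of genes were called higher and 5.37% lower, 9.93% in all. That call ended without resting platelet replicate 1 (0.0539), thrombin replicate 1 (0.0538) or activated platelet replicate 3 (0.0513), and without replicate number 1 (0.126) or 4 (0.124).

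**Figure D1:**
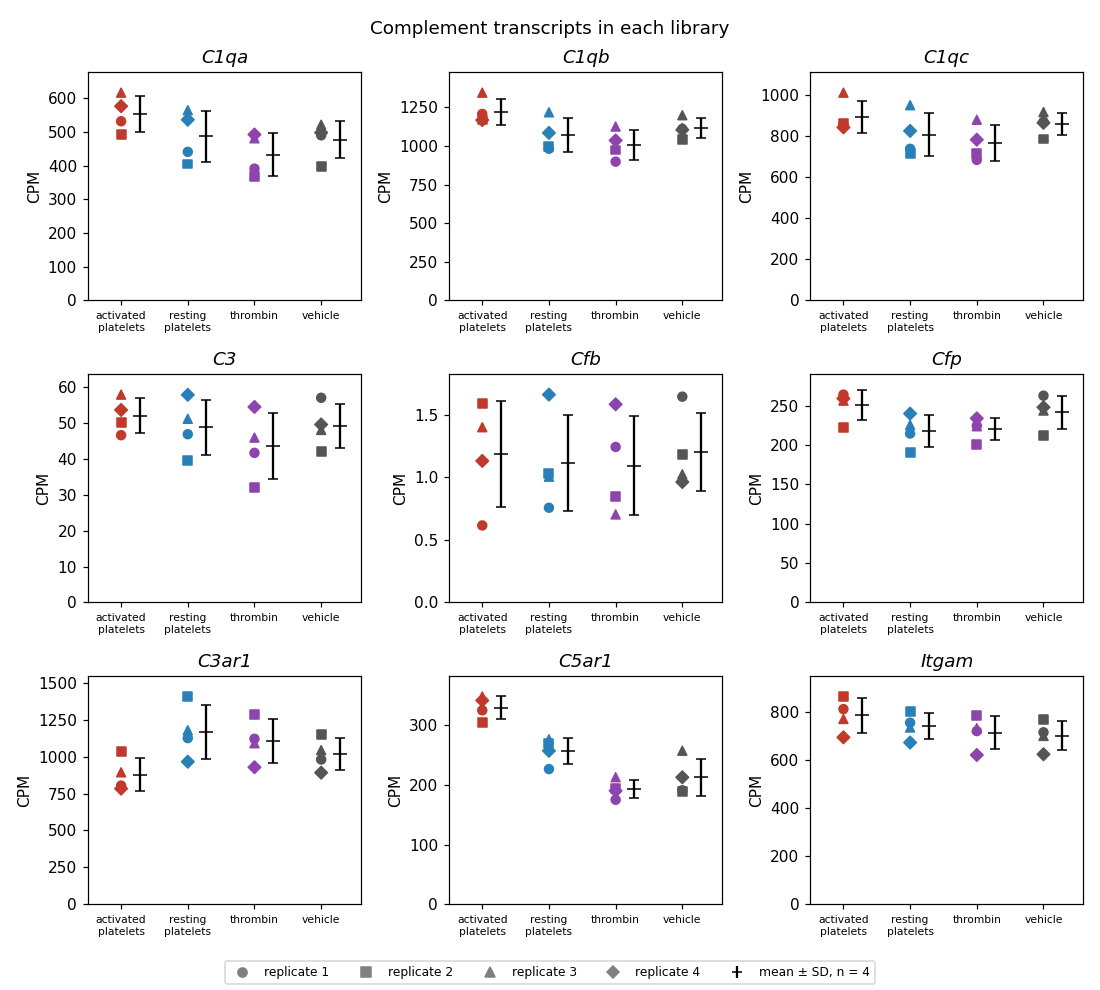
CPM of the 9 complement transcripts in each library, by group, with the marker shape giving the replicate number and the bar the mean ± SD of 4 libraries. The 4 activated platelet libraries of C5ar1, at 304 to 348 CPM, lie above all other libraries, and the groups overlap in most other panels.

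Summed markers of other cells also differed between the groups. The 18 platelet and megakaryocyte markers, 16 of them tested, summed to 395 to 475 CPM with activated platelets, 224 to 268 with resting platelets, 208 to 227 with thrombin and 199 to 244 CPM in vehicle, where Gp9 had no counts. Most of the sum without platelets was Pf4, which averaged 199 CPM in vehicle and 200 with thrombin, and 249 with activated platelets. Nrgn averaged 0.018 CPM in vehicle and 46.3 with activated platelets, and Ppbp 0.242 and 35.7 CPM. Each of the 18 had a higher mean with activated platelets than in vehicle. Neutrophils also carry this receptor, and the 10 neutrophil markers, 7 of them tested, summed to 50.2 to 124 CPM with activated platelets, 18.8 to 95.2 with resting platelets, 12.5 to 74.2 with thrombin and 20 to 64.9 CPM in vehicle. In replicates 1 to 4 the neutrophil sum was 62.4, 50.2, 124 and 54.4 CPM with activated platelets, against 23.8, 20, 43.5 and 64.9 CPM in vehicle, so it was higher in 3 of 4 numbers. With resting platelets it was 46.1, 18.8, 95.2 and 46.9 CPM, below vehicle in replicates 2 and 4. Most of the sum came from S100a8, S100a9, Ltf and Ngp. Of the 10 markers only Elane had a lower mean with activated platelets (0.112 CPM) than in vehicle (0.134), and Mpo averaged 0.447 and 0.366 CPM.

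Other marker lists moved as well. The 7 erythroid markers, 2 of them tested, summed to 7.62 to 14.2 CPM with activated platelets, 0.752 to 2.98 with resting platelets, 0 to 0.0401 with thrombin and 0 to 0.0714 CPM in vehicle. The 9 lymphocyte markers, 2 of them tested, summed to 6.90 to 12.8 CPM with activated platelets, 12.1 to 28.6 with resting platelets, 16 to 28.6 with thrombin and 18.6 to 32.8 CPM in vehicle. For both lists the activated platelet and vehicle libraries did not overlap. The part of any of these cells in the C5ar1 difference was not tested.

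C3ar1 went the other way with activated platelets. It stood at 804, 1035, 894 and 783 CPM with activated platelets, at 1125, 1406, 1178.5 and 965 CPM with resting platelets, at 1120.4, 1285, 1090.3 and 928 CPM with thrombin, and at 980.3, 1151, 1044 and 891 CPM in vehicle. Within every replicate number the activated platelet library was the lowest and the resting platelet library the highest, and replicate 2 led in each group. Activated against resting platelets, the log2 fold change was -0.41 ± 0.12 (edgeR, adjusted p = 0.0316), lower in 4 of 4 numbers. Without the block 1 member was thus called higher in this comparison, where 7.34% of genes were, and 1 lower, where 8.49% were.

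This call of C3ar1 lay near the threshold without the block. It ended without resting platelet replicate 1 (adjusted p = 0.0541), 2 (0.105) or 3 (0.0651), without activated platelet replicate 1 (0.103), 3 (0.0601) or 4 (0.0963), and without replicate number 1 (0.216) or 3 (0.159). It also ended with no filter on low counts (0.0634), in a fit of the 2 groups alone (0.0592) and after correction for transcript GC content (0.106). With the block the same difference had adjusted p = 1.87e-09. Against vehicle, activated platelets gave -0.21 ± 0.12 (adjusted p = 0.237; 1.61e-05 with the block) and resting platelets 0.20 ± 0.12 (0.405; 0.000249 with the block). The interaction was -0.53 ± 0.17 (0.064; 1.83e-08 with the block). Without the block, C3ar1 passed in the interaction by DESeq2 (adjusted p = 0.025). In edgeR it passed without vehicle replicate 2 (0.0475), resting platelet replicate 4 (0.0363) or thrombin replicate 4 (0.0387). It also passed there without activated platelet replicate 2 (0.0327) or replicate number 2 (0.0403).

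The ratio of C5ar1 to C3ar1 per kb of exon was set up after the values were seen and carries no test. It was 0.677, 0.492, 0.652 and 0.73 in replicates 1 to 4 with activated platelets, 0.337, 0.321, 0.393 and 0.446 with resting platelets, 0.262, 0.254, 0.327 and 0.343 with thrombin, and 0.326, 0.275, 0.413 and 0.4 in vehicle. C3ar1 was the more abundant transcript in all 16 libraries, and the activated platelet libraries had the highest ratios.

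**Figure D2:**
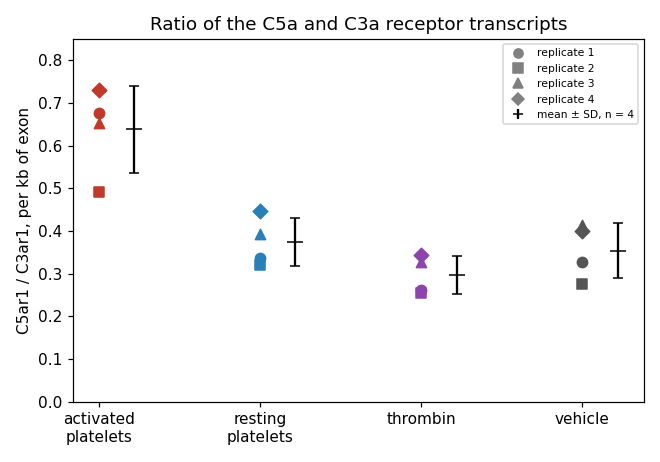
Ratio of C5ar1 to C3ar1, each as CPM per kb of exon, in each library, with the mean ± SD of 4 libraries beside each group. The activated platelet libraries lie between 0.492 and 0.73, and the vehicle libraries between 0.275 and 0.413.

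C5ar2, the other C5a receptor, which does not couple to G proteins, rose as well. It stood at 25.0, 19.8, 23.4 and 24.6 CPM with activated platelets, against 15.3, 14.1, 17.2 and 16.3 CPM in vehicle, a 1.47-fold rise (edgeR, adjusted p = 6.47e-05) with no overlap. Resting platelets gave C5ar2 a log2 fold change of 0.29 ± 0.08 against vehicle, past the threshold with the block (adjusted p = 0.00361) and not without it (0.0547). By the measure of likeness used, the root mean square difference of centred log2 CPM over all 16 libraries, the genes most like C5ar1 among 10365 candidates were Lpin2 (0.058), Tbc1d9 (0.103) and Ier2 (0.118). The same measure between C5ar1 and C3ar1 was 0.462.

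Itgam, on chromosome 7, 127661812 to 127717663, plus strand, encodes CD11b, which pairs with the beta chain encoded by Itgb2 to bind fragments of C3 on coated particles. Itgam stood at 812, 864, 771 and 695 CPM with activated platelets, at 756, 803, 736 and 673 CPM with resting platelets, at 721, 784, 733 and 621 CPM with thrombin, and at 716, 767, 701 and 624 CPM in vehicle. In every group replicate 2 was highest and replicate 4 lowest, and the groups overlapped. The log2 fold change with activated platelets against vehicle was 0.16 ± 0.08 (edgeR, adjusted p = 0.179). It lay between 0.14 and 0.18 within the 4 numbers, and passed with the block (adjusted p = 1.91e-05).

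Smaller differences of Itgam also passed with the block alone. Activated against resting platelets gave 0.08 ± 0.08 (adjusted p = 0.569; 0.0171 with the block), and resting platelets against vehicle 0.08 ± 0.08 (0.678; 0.0279 with the block). Itgb2 averaged 767 ± 109 CPM with activated platelets and 761 ± 120 CPM in vehicle (SD, n = 4), a log2 fold change of 0.01 (adjusted p = 0.962). Itgax, the alpha chain of complement receptor type 4, averaged 106 CPM with activated platelets and 131 CPM in vehicle and did not pass without the block (adjusted p = 0.405; 0.0037 with it, lower).

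The genes of the 3 C1q chains lie side by side on the minus strand of chromosome 4, C1qb at 136607437 to 136613511, C1qc at 136617112 to 136620242 and C1qa at 136623227 to 136626155. Their products assemble in equal numbers into the C1q molecule. C1qb and C1qc were the closest pair among the 9 members, with a root mean square difference of 0.0441 in centred log2 CPM over 16 libraries, so the bases before their starts are shown. The stretch of C1qb is chr4:136886201-136886450 and that of C1qc is chr4:136893066-136893164 (GRCm38.p6, minus strand, 5′ to 3′), each the longest run outside exons as above. Capitals again mark motif matches.
C1qb: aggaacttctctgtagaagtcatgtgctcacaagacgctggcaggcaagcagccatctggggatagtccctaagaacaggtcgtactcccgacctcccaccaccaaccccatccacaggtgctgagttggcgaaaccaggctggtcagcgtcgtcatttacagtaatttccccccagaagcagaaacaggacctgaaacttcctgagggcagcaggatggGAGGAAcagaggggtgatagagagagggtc
C1qc: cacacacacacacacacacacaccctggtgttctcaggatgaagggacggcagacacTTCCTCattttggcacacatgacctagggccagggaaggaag

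Each window held 1 PU.1 core match, 30 bases upstream for C1qb and, on the other strand, 193 bases upstream for C1qc. Such a match was found in 23.3% of the 32851 windows. Itgam had 2 of them, 84 and 15 bases upstream, and C3ar1, C5ar1, C3 and Cfp had 0. C1qc also held 1 C/EBP-like match, in the part not shown.

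C1qb stood at 1208, 1169, 1346 and 1168 CPM with activated platelets, at 983, 996, 1219 and 1085 CPM with resting platelets, at 899, 974, 1126 and 1037 CPM with thrombin, and at 1111, 1044, 1199.6 and 1105 CPM in vehicle. C1qa stood at 532, 494, 617 and 577 CPM with activated platelets, at 441, 405, 565 and 537 CPM with resting platelets, at 391.7, 368, 482 and 493 CPM with thrombin, and at 491, 397, 522 and 498.5 CPM in vehicle. For C1qa and C1qb alike, the activated platelet library was the highest within every number and the thrombin library was below vehicle in 4 of 4. The activated platelet libraries lay above all thrombin libraries for both genes and overlapped with the resting platelet and vehicle libraries. Replicate 2 was the lowest for C1qa in every group.

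C1qc stood at 854, 858, 1009.7 and 841 CPM with activated platelets, at 737, 715, 949 and 824 CPM with resting platelets, at 683, 713, 878 and 781 CPM with thrombin, and at 868, 785, 915 and 863 CPM in vehicle. Replicate 3 was the highest in every group, and the groups overlapped.

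In edgeR with all 16 libraries and no block, no C1q chain passed. Activated platelets against vehicle gave log2 fold changes of 0.22 ± 0.12 for C1qa (edgeR, adjusted p = 0.213), 0.13 ± 0.08 for C1qb (0.256) and 0.05 ± 0.10 for C1qc (0.732). With the block C1qa (adjusted p = 0.000103) and C1qb (0.00382) passed, while C1qc did not (0.325). C1qc was higher in 2 of 4 numbers.

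Against resting platelets, activated platelets gave 0.19 ± 0.12 for C1qa, 0.19 ± 0.08 for C1qb and 0.14 ± 0.10 for C1qc, with adjusted p of 0.331, 0.126 and 0.348 in edgeR. With the block they were 0.000539, 0.000142 and 0.00625. Thrombin against vehicle gave -0.14 ± 0.12 for C1qa, -0.14 ± 0.08 for C1qb and -0.17 ± 0.10 for C1qc (adjusted p = 0.735, 0.541 and 0.548), and with the block 0.0321, 0.0135 and 0.0123. Resting platelets against vehicle gave 0.03, -0.06 and -0.09 in the same order, none past the threshold with or without the block.

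The interaction was 0.33 ± 0.17 for C1qa, 0.34 ± 0.11 for C1qb and 0.31 ± 0.14 for C1qc (edgeR, adjusted p = 0.255, 0.0747 and 0.161), and the block gave 0.000103, 1.79e-05 and 0.000199. C1qb also passed there without the block by DESeq2 (adjusted p = 0.0292) and in edgeR without resting platelet replicate 3 (0.0318), thrombin replicate 3 (0.0448) or replicate number 3 (0.0429). C1qb passed for activated against resting platelets without resting platelet replicate 3 (0.0436).

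C1qc was 0.716 ± 0.018 of C1qb per kb of exon with activated platelets, 0.739 ± 0.025 with resting platelets, 0.744 ± 0.019 with thrombin and 0.757 ± 0.014 in vehicle (SD, n = 4). C1qa was 0.463 ± 0.031 of C1qb with activated platelets, 0.463 ± 0.037 with resting platelets, 0.438 ± 0.041 with thrombin and 0.436 ± 0.032 in vehicle. The transcripts were thus unequal per length in every group, and the ratio of C1qc to C1qb ran from 0.696 to 0.738 with activated platelets, against 0.740 to 0.769 in vehicle, with no overlap. These ratios were set up after the values were seen and carry no test. Summed over the 3 chains, C1q took 2669 ± 205 CPM with activated platelets, 2364 ± 286 CPM with resting platelets, 2206 ± 235 CPM with thrombin and 2450 ± 169 CPM in vehicle.

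C3, on chromosome 17, 57510967 to 57535136, minus strand, encodes the protein that every complement pathway cleaves. It stood at 46.6, 50.2, 57.9 and 53.6 CPM with activated platelets, at 46.9, 39.6, 51.2 and 57.9 CPM with resting platelets, at 41.7, 32.2, 45.9 and 54.5 CPM with thrombin, and at 57.0, 42.1, 48.1 and 49.6 CPM in vehicle. The groups overlapped, and activated platelets against vehicle gave 0.08 ± 0.14 (edgeR, adjusted p = 0.728; 0.577 with the block), higher in 3 of 4 numbers. Fibroblasts also make C3, and the 7 stromal markers, 6 of them tested, summed to 2367 to 5147 CPM with activated platelets, 2850 to 5658 with resting platelets, 2780 to 5483 with thrombin and 2888 to 5839 CPM in vehicle. Of these markers Col1a1 averaged 1742 CPM in vehicle, while Dcn averaged 0.442 CPM and Lum 0.036 CPM. Replicate 2 had the lowest stromal sum in each group and the lowest C3 in 3 of them. With activated platelets, replicate 1 had the highest stromal sum, 5147 CPM, and the lowest C3, 46.6 CPM. The part of stromal cells in the C3 level was not tested.

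Factor B, the protease of the alternative pathway convertase, had few counts. Cfb (chromosome 17, 35075350 to 35081492, minus strand) had 137 counts over the 4 libraries with activated platelets, 113 with resting platelets, 111 with thrombin and 127 in vehicle. It ran from 0.616 to 1.59 CPM with activated platelets and from 0.963 to 1.65 CPM in vehicle, and its SD was 25.6% to 36.4% of the mean in each group. The log2 fold change of -0.03 ± 0.31 (adjusted p = 0.961) had the widest error of the 9 members.

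Properdin, the protein that stabilises that convertase, was far more abundant. Cfp (chromosome X, 20791693 to 20797794, minus strand) stood at 264, 222, 257 and 259 CPM with activated platelets, at 215, 191, 226 and 240.1 CPM with resting platelets, at 225, 201, 224 and 234 CPM with thrombin, and at 263, 213, 244 and 248 CPM in vehicle. Replicate 2 was lowest in every group. Within numbers, Cfp was lower than vehicle with resting platelets and with thrombin in 4 of 4.

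In edgeR with all 16 libraries and no block, Cfp passed in no comparison. Resting platelets against vehicle gave -0.15 ± 0.08 (edgeR, adjusted p = 0.31; 0.00195 with the block) and thrombin against vehicle -0.13 ± 0.08 (0.57; 0.017 with the block). Activated against resting platelets gave 0.20 ± 0.08 (0.0966; 3.53e-05 with the block), and activated platelets against vehicle 0.05 ± 0.08 (0.695; 0.22 with the block). The interaction was 0.33 ± 0.11 (0.0695; 9.26e-06 with the block).

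Some fits without the block did call Cfp. For activated against resting platelets it passed without resting platelet replicate 4 (adjusted p = 0.042), activated platelet replicate 2 (0.0416) or replicate number 2 (0.0183). In the interaction it passed by DESeq2 (0.034) and in edgeR without vehicle replicate 2 (0.0305), resting platelet replicate 4 (0.0323), activated platelet replicate 2 (0.0337) or replicate number 2 (0.0104).

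**Figure D3:**
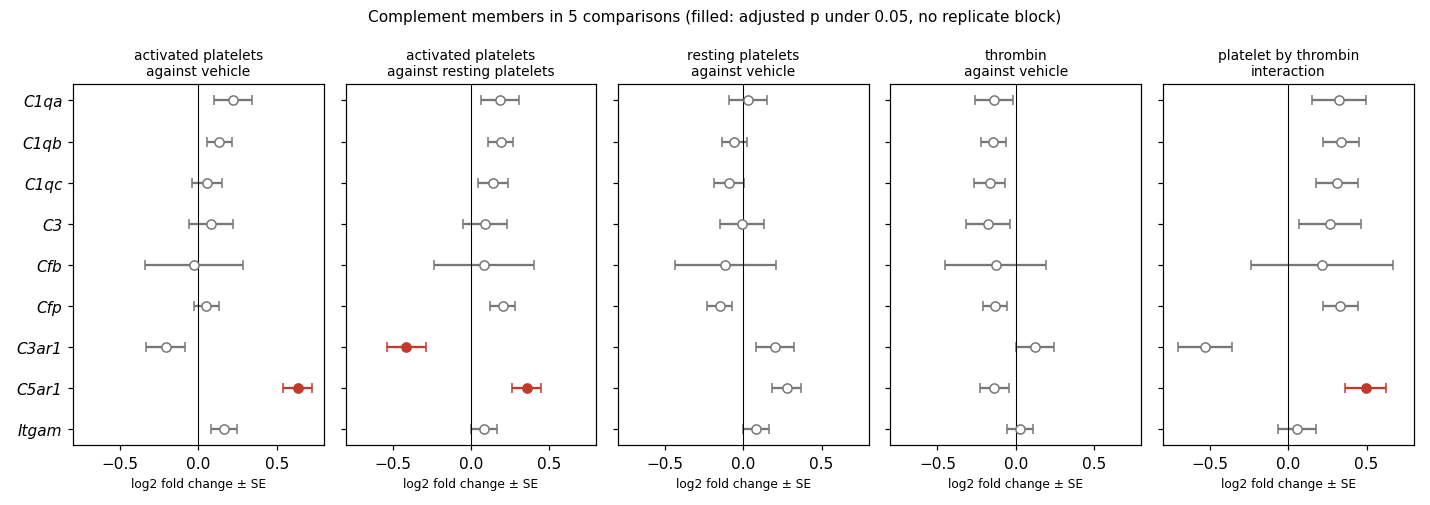
Log2 fold changes ± SE of the 9 members in the 5 comparisons, from the edgeR fit of all 16 libraries with no block, filled where the adjusted p is under 0.05. C5ar1 is filled in 3 panels and C3ar1 in 1, and in the interaction the C1q chains, C3 and Cfp lie between 0.27 and 0.34.

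Per kb of exon the order of mean levels was the same in all 4 groups. In vehicle C1qb led at 1010 ± 58.1 CPM per kb, then C1qc at 765 ± 48.3, C1qa at 441 ± 50.8, C3ar1 at 236 ± 25.4, Itgam at 150.0 ± 12.6, Cfp at 148 ± 12.9, C5ar1 at 82.8 ± 12.4, C3 at 9.45 ± 1.18 and Cfb at 0.435 ± 0.112 CPM per kb (SD, n = 4). Neighbours in that order did not overlap, except Itgam and Cfp in every group and C3ar1 and Itgam with activated platelets. With activated platelets C5ar1 averaged 128 ± 7.61 CPM per kb, against 204 ± 26.6 for C3ar1. Lengths are those of all annotated exons of a gene merged, so a gene with long exons it does not use is understated.

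**Figure D4:**
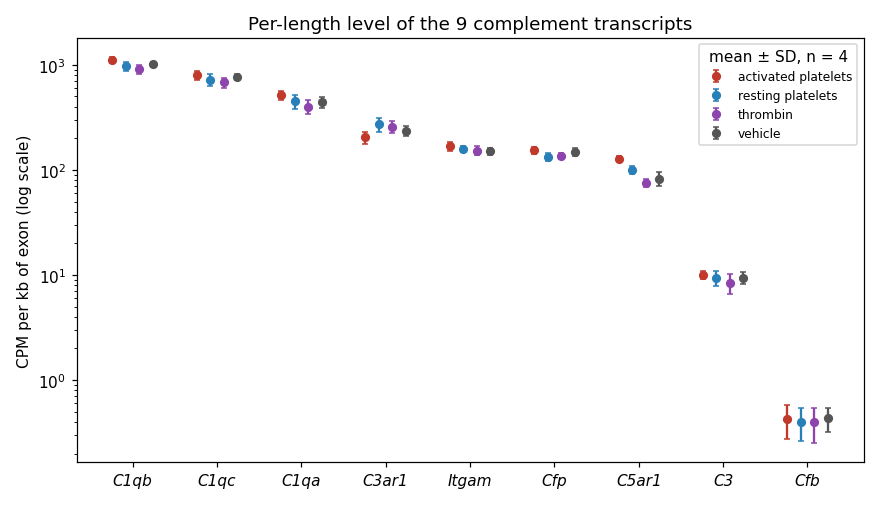
Mean ± SD of CPM per kb of exon on a log axis for the 9 members in the 4 groups, 4 libraries each, ordered by the vehicle mean. The members span from 1107 CPM per kb for C1qb with activated platelets down to 0.395 for Cfb with thrombin.

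Activated platelets against vehicle had 1 called of 9, against 25.8% of all genes, with a median log2 fold change of 0.08 over the members and -0.004 over all genes. Activated against resting platelets had 2 of 9 against 15.8%, with medians of 0.14 and -0.003. Resting platelets against vehicle had 0 of 9 in edgeR, against 3.39% of all genes (2.07% higher, 1.32% lower). DESeq2 and limma-voom also called 0 of 9, and 934 and 465 of all genes. At an unadjusted p under 0.05 in edgeR there was 1 of 9, and 3001 of the 15610 genes tested. Thrombin against vehicle had 0 of 9 in edgeR, against 0.288% (0.0897% higher, 0.199% lower). DESeq2 and limma-voom again called 0 of 9, and 165 and 43 of all genes. At an unadjusted p under 0.05 in edgeR there were 0 of 9, and 1786 of the genes tested.

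With replicate number as a block the counts were larger, as they were for all genes. Activated platelets against vehicle then had 5 of 9, 4 higher and 1 lower, against 42.5% of all genes (20% higher, 22.5% lower). Activated against resting platelets had 7 of 9, 6 higher and 1 lower, against 34.5% (15.9% higher, 18.6% lower). Resting platelets against vehicle had 4, 3 higher and 1 lower, against 21.5% (10.9% higher, 10.6% lower). Thrombin against vehicle had 5, 1 higher and 4 lower, against 8.23% (3.91% higher, 4.32% lower). The interaction had 6, 5 higher and 1 lower, against 29.1% (13.1% higher, 15.9% lower).

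Correction for transcript GC content changed the thrombin calls. The C1q chains and Cfp have transcripts of 56.3% to 59.5% GC and C3ar1 one of 43% GC, against a median of 49.7% over the genes tested. C3, at 53.3% GC, and C5ar1, at 49.2%, had thrombin values of -0.18 and -0.14 in log2 without the block, and neither was called. After correction for GC, thrombin against vehicle had 0 of 9 members called with the block, and 426 of all genes. The values of C1qa, C1qb, C1qc and Cfp in that fit were -0.05, -0.07, -0.10 and -0.07 in log2. In the interaction 6 members were called in the blocked fit before and after this correction, and 4535 and 3567 of all genes. Before it the values were 0.34 for C1qa, 0.34 for C1qb, 0.32 for C1qc, 0.33 for Cfp, 0.49 for C5ar1 and -0.53 for C3ar1, and after it 0.20 for C1qa, 0.22 for C1qb, 0.19 for C1qc, 0.22 for Cfp, 0.51 for C5ar1 and -0.41 for C3ar1.

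**Figure D5:**
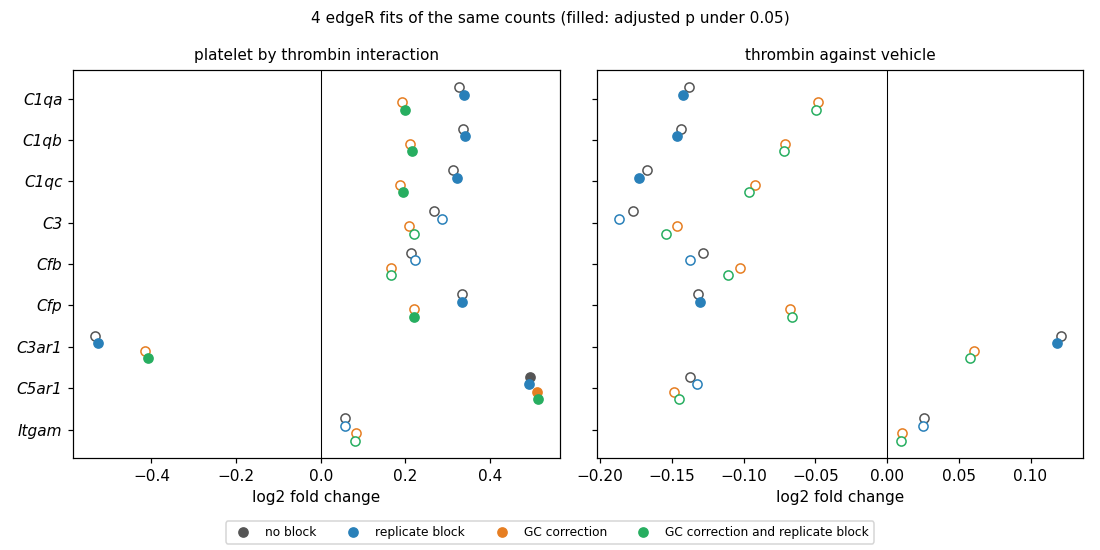
Log2 values of the 9 members for the interaction and for thrombin against vehicle in 4 edgeR fits, without and with the replicate block and the GC correction, filled where the adjusted p is under 0.05. For thrombin the 5 filled points of the blocked fit are open after GC correction, and in the interaction 6 members stay filled.

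Of 53 other complement genes, chosen by function, 31 passed the filter on low counts. Against vehicle, activated platelets raised 3 of them and lowered 2, 5 of 31 called where 25.8% of all genes were. Under the block 3 were higher and 7 lower, 10 of 31 where 42.5% of all genes were called. Of the terminal components 1 of 7 passed the filter, and of the fluid-phase regulators 4 of 11. Mbl1, Cfd, C7, C8b and Vtn were among those with 0 counts in all 16 libraries, which allows up to 0.00708 CPM, and no gene left out by the filter exceeded 0.44 CPM in any library. None of the 6 membrane regulators tested was called in any comparison, with or without the block.

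Clu, the gene of clusterin, which keeps the terminal complex from inserting into membranes, rose most. It stood at 12.8, 15.5, 10.7 and 11.9 CPM with activated platelets, at 3.83, 2.39, 3.68 and 2.10 CPM with resting platelets, at 1.52, 1.12, 1.41 and 1.17 CPM with thrombin, and at 1.65, 0.818, 0.952 and 1.36 CPM in vehicle. That is 10.5-fold with activated platelets (edgeR, adjusted p = 2.11e-08) and 2.48-fold with resting platelets (0.00665), with no overlap with vehicle in either case. Platelets themselves carry clusterin, and the platelet marker sums given above rose in the same groups. The part of platelet RNA in the Clu difference was not tested.

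Megf10, a phagocytic receptor that binds C1q, rose 4.91-fold with activated platelets to 5.23 ± 2.17 CPM, against 1.05 ± 0.424 CPM in vehicle (SD, n = 4; adjusted p = 9.59e-05 by edgeR). Cd93, first described as a C1q receptor, fell 1.51-fold and stood at 392.2, 333, 417 and 417 CPM with activated platelets, against 565, 519.5, 707 and 568 CPM in vehicle (adjusted p = 0.000463, no overlap). Masp1, a protease of the lectin pathway, averaged 6.39 ± 2.07 CPM with activated platelets and 12.7 ± 3.52 CPM in vehicle, 1.99-fold lower (adjusted p = 0.00823).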

How the data were processed

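The submitters' processing notes name cutadapt 2.5 and STAR 2.7.2b, then Subread with featureCounts 1.6.4, without roles, and the builds GRCm39 and mm10. Strand and multi-mapping settings are not stated in the labels or headers. The deposited table held estimated counts per gene, not normalized. Of its values above 0, 25.5% were fractional, where the planned tests had taken them to be whole, so all were rounded. The merged exon length was also deposited by the authors, per the file headers. C3 and Cfb each span a microRNA with at most 1 count, and no other member overlaps a gene.

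After filterByExpr, 15610 genes were scaled by TMM and tested in edgeR 4.0.16 (R 4.3.3) with the robust quasi-likelihood test, all 16 libraries entering as 4 groups. Two-sided p-values were adjusted over all genes by Benjamini-Hochberg, and a gene is called at an adjusted p under 0.05. A prior count of 2 entered log2 CPM, used for likeness. The scripts were tested on simulated data. Alternatives were the replicate block, RLE size factors, DESeq2 1.42.0, limma-voom (limma 3.58.1), no filter, fits of the compared groups alone, each library or replicate number left out and, chosen after seeing the data, correction for transcript GC content.

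With group means removed, libraries sharing a replicate number correlated at 0.29 to 0.617 (24 pairs), against -0.436 to 0.253 for other pairs, and the best match of 16 of 16 libraries carried the same number. The replicate block and the comparisons within numbers therefore treated libraries as paired by number, on the data alone, as no label explains it. The main fit did not. No label says that replicates are separate animals, so p-values reflect the spread of these libraries, part of which may be technical. The members and lists were chosen with earlier results of these data known. Named were all 9 members, the called genes of the other complement list with the smallest p in either platelet comparison with vehicle, Itgb2, and the 3 genes most like C5ar1. Itgax, Ddx3y and Xist were named after their values were seen. Some items are not reported here.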

Additional observations from a re-analysis of the deposited data

Results flagged for a closer look

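C1qc with activated platelets had replicate 3 far above the others, at 1009.7 CPM against 841 to 858 CPM, a gap that was 0.896 of the range of the 4 libraries. Replicate 3 was also the highest for C1qc in the resting platelet, thrombin and vehicle groups. Of 36 groups of 4 libraries looked at, this was the 1 that passed, and chance flags about 1 in 20.

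The difference of C5ar1 between activated and resting platelets was not the same as that between thrombin and vehicle, with an interaction of 0.494 in log2 (edgeR, adjusted p = 0.0241).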

How the results depend on the processing

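The count of called members for activated platelets against vehicle was 1 in every fit without the block, and 5 with the replicate block, with and without GC correction. For activated against resting platelets the count of 2 became 7 with the block, with and without GC correction, and 1 with no filter, in the fit of these groups alone and with GC correction. It ranged from 0 to 3 when libraries or numbers were left out. For resting platelets against vehicle 0 became 4 with the block and 5 with block and GC correction, where C1qa passed as well, and 0 to 1 with libraries left out. For thrombin against vehicle 0 became 5 with the block, and was 0 in the other fits, block with GC correction included. For the interaction 1 became 4 by DESeq2, where C1qb, Cfp and C3ar1 passed as well, 6 with the block with and without GC correction, and 0 to 3 with libraries left out. Over all genes the block raised the calls to 6635 (main 4031), 5391 (2472), 3360 (529), 1285 (45) and 4535 (1550) in the same order of comparisons. With block and GC correction they were 6888, 5353, 2742, 426 and 3567. For activated against resting platelets 2001 genes were called with no filter, 2068 in the fit of these groups alone and 1875 with GC correction. DESeq2 called 1873 genes in the interaction.

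Changes of sign were limited to values that did not pass. With GC correction resting platelets against vehicle gave 0.00178 for C1qb and 0.0163 for C3, and 0.000985 and 0.0115 with the block as well. Leaving out libraries gave -0.0117 to 0.0900 for C1qc and -0.00635 to 0.104 for Cfp with activated platelets against vehicle, -0.0491 to 0.109 for C1qa and -0.108 to 0.0892 for C3 with resting platelets against vehicle, and -0.0308 to 0.0815 for Itgam with thrombin against vehicle. Cfb ranged from -0.212 to 0.396 with activated platelets against vehicle, -0.122 to 0.371 against resting platelets, -0.473 to 0.231 for resting platelets and -0.462 to 0.0635 for thrombin against vehicle, and -0.0943 to 0.834 in the interaction. Cfb had 111 to 137 counts a group. The cause of these changes was not tested.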
